A study of Mus musculus with 32 samples.

Results

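The lysosomal cathepsins Ctsa, Ctsb, Ctsc, Ctsd, Ctsh, Ctsl, Ctss and Ctsz and the secreted cathepsin inhibitor cystatin C (Cst3) were followed in the spinal cord of SOD1-G93A mice and wild-type (WT) littermates. The genes were taken by symbol, and all 9 of them, of 42524 genes in the count table, were found and passed the filter on low counts in every comparison. RNA was sequenced from weighed pieces of spinal cord tissue of 32 mice in 8 groups of 4. The groups were WT untreated, WT with OKN-007, G93A untreated and G93A with OKN-007, each at 90 days and at 155 days of age by the labels, and the text of the study puts the early age a few days later. OKN-007 (OKN007 in the labels) is a nitrone with antioxidant properties that was given in the drinking water. The G93A mice carry many copies of a human SOD1 gene with the G93A mutation under the human promoter on a C57BL/6J background, so that the mutant protein is made in all cell types and not in motor neurons alone. The human transgene was not analysed here. The labels name no dose for the sequenced mice. The study used a lower and a higher dose, and the mice it describes as killed near these ages belong to the higher-dose cohorts, which were female. Each library came from a different mouse, so that the number shared by mice of both ages does not mark the same animal.

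Cathepsins are proteases that mature in the acidic lysosome, where they degrade proteins brought in by endocytosis, phagocytosis and autophagy. Ctsd is an aspartic protease, Ctsa is a serine carboxypeptidase, and Ctsb, Ctsc, Ctsh, Ctsl, Ctss and Ctsz are cysteine proteases of the papain family. In the nervous system microglia hold several of these enzymes at high levels, while cystatin C, which binds and blocks the papain-type enzymes outside and inside the cell, is made by astrocytes, neurons and microglia.

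On GRCm38 (GENCODE M21), 3 of the 9 genes lie on chromosome 2, Ctsa at chr2:164832873-164841032 (ENSMUSG00000017760), Cst3 at chr2:148871722-148875692 (ENSMUSG00000027447, minus strand) and Ctsz at chr2:174427493-174439039 (ENSMUSG00000016256, minus strand). Chromosome 7 holds Ctsc at chr7:88278085-88310888 (ENSMUSG00000030560) and Ctsd at chr7:142375911-142388038 (ENSMUSG00000007891, minus strand). The others are Ctsb at chr14:63122462-63145923 (ENSMUSG00000021939), Ctsh at chr9:90054152-90076089 (ENSMUSG00000032359), Ctsl at chr13:64359337-64370890 (ENSMUSG00000021477, minus strand) and Ctss at chr3:95526786-95556403 (ENSMUSG00000038642). Genes without a named strand lie on the plus strand.

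The promoters are shown because the genes moved together and because the factors TFEB and TFE3, which bind the CACGTG box, and PU.1, which binds sites with the core GAGGAA, are known regulators of lysosomal and microglial genes. RefSeq windows on GRCm38.p6, from 250 bases before to 50 bases after the start site, were given for 7 of the 9 genes, with 8 windows in all. The 250 bases before the start site are printed for 5 windows on the strand of the gene, with CACGTG or GAGGAA, or its reverse complement TTCCTC, in capitals.
Ctsd, chr7:142387828-142388077, minus strand: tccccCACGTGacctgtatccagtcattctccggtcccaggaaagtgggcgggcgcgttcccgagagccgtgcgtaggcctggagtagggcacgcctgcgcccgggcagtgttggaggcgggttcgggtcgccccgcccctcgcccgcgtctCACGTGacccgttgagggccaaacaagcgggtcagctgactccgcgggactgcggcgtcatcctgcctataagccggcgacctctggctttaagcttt
Ctsa, second window, chr2:164833523-164833772, plus strand: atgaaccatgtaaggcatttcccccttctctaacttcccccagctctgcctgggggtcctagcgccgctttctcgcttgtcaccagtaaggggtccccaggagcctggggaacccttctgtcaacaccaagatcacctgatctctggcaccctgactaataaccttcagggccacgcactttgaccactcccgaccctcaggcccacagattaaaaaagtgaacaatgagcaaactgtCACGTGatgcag
Ctsc, chr7:88277835-88278084, plus strand: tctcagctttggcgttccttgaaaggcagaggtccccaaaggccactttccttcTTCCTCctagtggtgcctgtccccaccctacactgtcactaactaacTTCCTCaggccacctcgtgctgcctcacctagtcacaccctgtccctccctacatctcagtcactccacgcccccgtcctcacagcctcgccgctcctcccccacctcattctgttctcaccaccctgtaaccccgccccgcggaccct
Ctss, chr3:95526536-95526785, plus strand: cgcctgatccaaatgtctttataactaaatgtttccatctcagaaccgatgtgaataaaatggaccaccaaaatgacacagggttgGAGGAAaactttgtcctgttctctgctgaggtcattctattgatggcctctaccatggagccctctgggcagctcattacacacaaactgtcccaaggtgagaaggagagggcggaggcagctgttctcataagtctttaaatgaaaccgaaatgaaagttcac
Cst3, chr2:148875513-148875762, minus strand: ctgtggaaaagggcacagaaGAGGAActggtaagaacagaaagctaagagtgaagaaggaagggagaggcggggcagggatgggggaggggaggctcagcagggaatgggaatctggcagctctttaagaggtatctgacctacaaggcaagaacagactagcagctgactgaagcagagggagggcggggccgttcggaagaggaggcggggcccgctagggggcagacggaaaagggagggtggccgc

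CACGTG began at -245 and -98 in Ctsd, at -12 and 5 in Ctsa and at -236 in Ctsl, counted with the first transcribed base as 0. In Ctsd the box at -98, and in Ctsa both boxes, lay within the longer form TCACGTGA. The core GAGGAA, read on both strands, began at -196 and -149 in Ctsc, at -164 and 0 in Ctss and at -230 in Cst3, and the longer form GAGGAAGT, which contains the core, was present at -151 in Ctsc and at -2 in Ctss. The first window of Ctsa and the window of Ctsz held neither core. Of 32851 mouse promoter windows of this length, 7.15% held CACGTG, 0.974% TCACGTGA, 28.3% GAGGAA and 3.20% GAGGAAGT. A match is a description of the letters only, and binding was not measured.

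The libraries held 19701722 to 30138257 counts (median 26658755), and the 9 genes took 0.155% to 0.821% of them. The smallest count of any of the 9 genes in any mouse was 192, far above the 3 counts (0.152 CPM in the smallest library) that a count of 0 allows. CPM is the count of a gene scaled to the total of its library, after adjustment of that total by edgeR (TMM). Some libraries stood apart by markers of other tissues. The summed level of liver markers was 190.4 CPM in G93A untreated mouse 12 and 133 CPM in G93A OKN-007 mouse 15, both at 155 days, and Schwann cell markers reached 1113 CPM in 1 WT untreated mouse at 90 days. Liver markers at 90 days reached lower sums, up to 76.8 CPM in WT OKN-007, 41.6 CPM in G93A untreated and 30.5 CPM in G93A OKN-007 mice. Schwann cell markers also reached 209 CPM in the G93A untreated mice at 90 days. With OKN-007 at 155 days they reached 33.1 CPM in WT and 31.1 CPM in G93A mice. No fit used the Schwann cell markers as a covariate. The summed caudal Hox genes, which mark the level of the cord, were 88.1 to 157 CPM in the WT untreated mice at 155 days and 4.35 to 82.3 CPM in the G93A untreated mice. With OKN-007 at 155 days they were 129 to 172 CPM in WT and 22.7 to 68.6 CPM in G93A mice. These sums of WT and G93A mice did not overlap, so a Hox covariate cannot fully separate the level of the cord from genotype. The genotype, drug and age comparisons that use mice of 155 days are therefore also given without the mice with liver RNA and with the Hox level as a covariate.

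At 155 days all 9 genes were higher in the G93A mice than in the WT mice, with folds from 2.01 for Cst3 to 8.46 for Ctss in untreated mice. No G93A mouse overlapped a WT mouse for any of the 9 genes. By edgeR's quasi-likelihood test (adjusted p under 0.05) all 9 genes were called higher, against 21.3% of 18675 genes tested called higher and 39.5% called in either direction, and 17.4% of all genes were higher with no overlap of the groups. The median log2 fold change was 2.28 over the 9 genes and 0.00015 over all genes.

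Ctsd, the main aspartic protease of the lysosome, was at 121, 157, 128 and 119 CPM in WT untreated mice 1 to 4 and at 877, 1153, 1272 and 633 CPM in G93A untreated mice 9 to 12. Its log2 fold change was 2.92 (SE 0.17, adjusted p = 1.66e-10, edgeR). G93A mouse 12 was the lowest of its group, and was still above every WT mouse. Ctsd shares 808 exonic bases with an unnamed gene model on its own strand that was not a row of the count table.

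Ctss, a cysteine protease that keeps its activity at neutral pH and cleaves the invariant chain of MHC class II, was at 139.8, 168, 143 and 125 CPM in the WT mice and at 995, 1404, 1619.9 and 806 CPM in the G93A mice. The log2 fold change was 3.08 (SE 0.17, adjusted p = 8.91e-11, edgeR), the highest estimate of the 9 genes. Ctsz, a carboxypeptidase that removes single residues from protein ends, was at 48.5, 66.6, 49.2 and 52.6 CPM in WT and at 339.5, 479, 492 and 261 CPM in G93A mice, with a log2 fold change of 2.87 (SE 0.17, adjusted p = 2.45e-10, edgeR). Ctsh, an aminopeptidase, was at 10.1, 12.4, 9.90 and 10.7 CPM in WT mice and at 70.4, 91.1, 92.7 and 53.5 CPM in G93A mice. Its log2 fold change was 2.85 (SE 0.14, adjusted p = 3.79e-11, edgeR). The estimates of Ctss, Ctsd, Ctsz and Ctsh lay close together against their standard errors, and their order was not tested.

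Ctsl, an endopeptidase of broad specificity, was at 71.1, 77.8, 67.2 and 75.4 CPM in WT mice and at 254, 374, 527 and 242 CPM in G93A mice, a log2 fold change of 2.28 (SE 0.18, adjusted p = 8.88e-09, edgeR). Mouse 11 stood above the other G93A mice for this gene. Ctsb, which acts as both an endopeptidase and a carboxypeptidase, was at 539, 625, 543 and 541 CPM in WT and at 1612, 2041, 2480.3 and 1334 CPM in G93A mice, with a log2 fold change of 1.75 (SE 0.14, adjusted p = 1.07e-08, edgeR). Ctsc, which activates the serine proteases of immune granules, was at 9.21, 8.34, 9.52 and 9.22 CPM in WT and at 30.7, 47.3, 41.4 and 28.8 CPM in G93A mice, with a log2 fold change of 2.04 (SE 0.13, adjusted p = 4.41e-10, edgeR). Mouse 11 was the highest G93A mouse for 8 of the 9 genes, Ctsc being the exception with mouse 10, and mouse 12 was the lowest for all 9.

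Ctsa, which protects beta-galactosidase and neuraminidase in a lysosomal complex, was at 62.8, 75.3, 65.2 and 63.7 CPM in WT mice and at 173, 218, 241 and 143 CPM in G93A mice. The log2 fold change was 1.55 (SE 0.13, adjusted p = 1.49e-08, edgeR). Cst3, the inhibitor, was at 586, 955, 612 and 652 CPM in WT mice and at 1292, 1525, 1737 and 1030.3 CPM in G93A mice. It had the smallest change of the 9 genes, a log2 fold change of 1.01 (SE 0.14, adjusted p = 2.18e-05, edgeR), and the gap between its groups was narrow, from 955 CPM in WT mouse 2 to 1030.3 CPM in G93A mouse 12. Ctsa, Ctsb, Ctsl and Ctsz share exonic bases with genes on the opposite strand (819 bases for Ctsa, 774 for Ctsb, 1742 for Ctsl and 10 for Ctsz), and whether the counting used strand was not stated. Ctsl also shares 395 exonic bases with a pseudogene on its own strand.

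**Figure D1:**
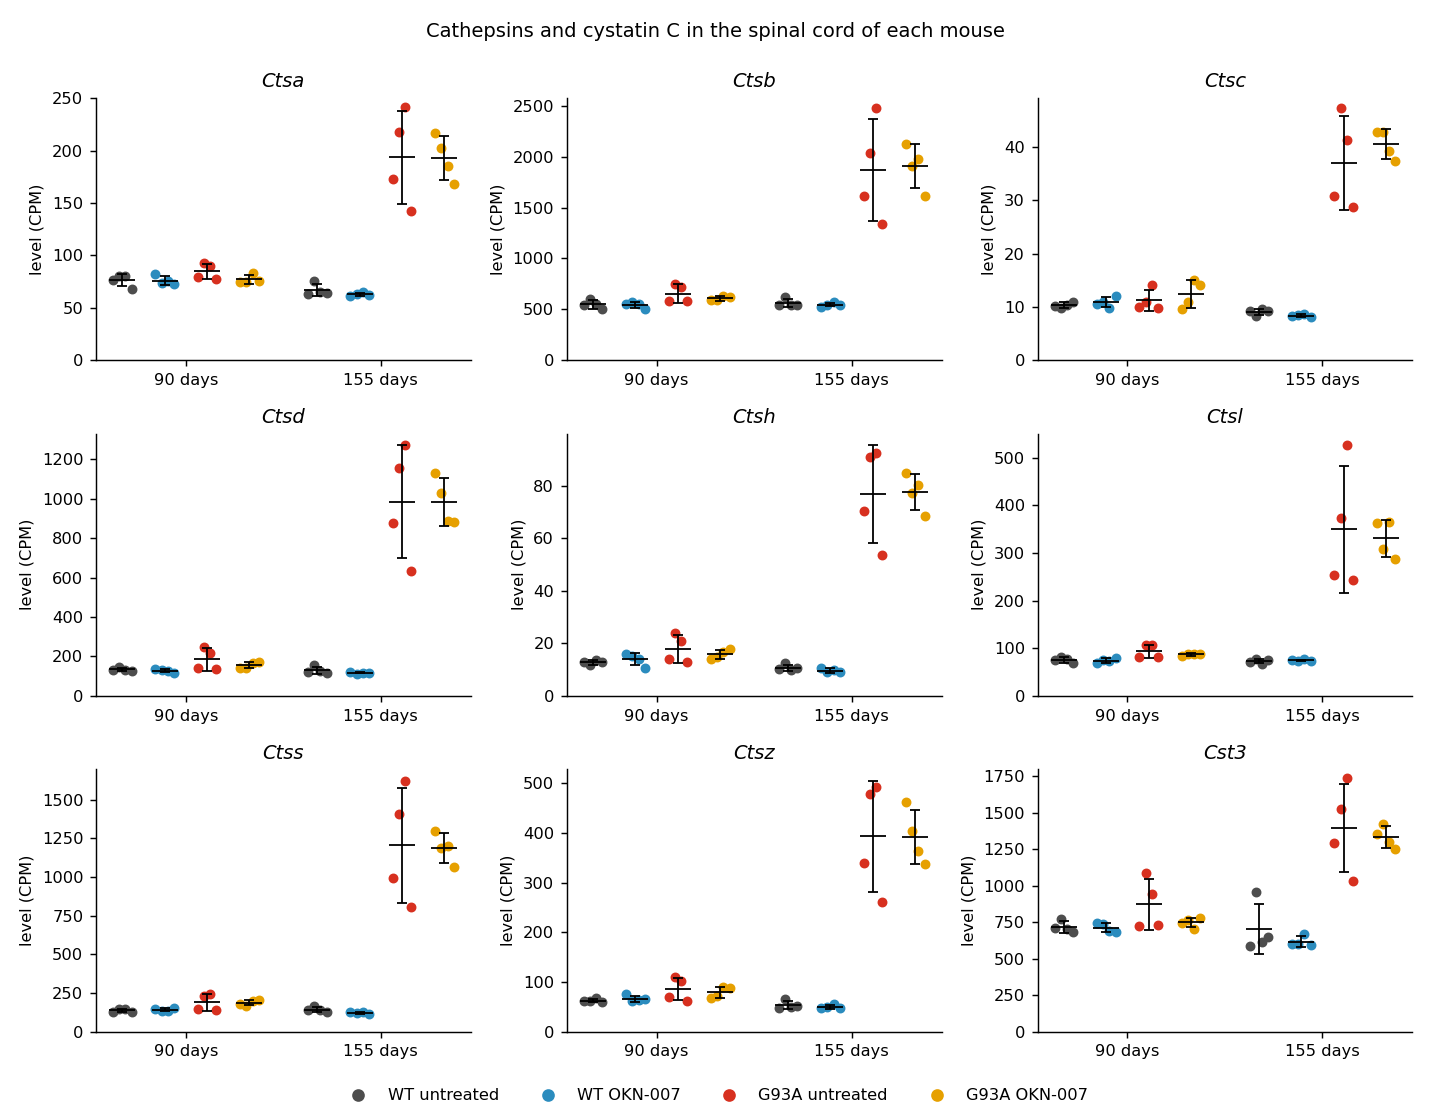
Level of each of the 9 genes in CPM (linear axis from 0) in every mouse at 90 and 155 days, coloured by group, with 4 mice per group; points are mice, horizontal lines are group means and bars are the SD. The G93A mice of both treatments at 155 days lie above all other mice for the 8 cathepsins, while for Cst3 G93A untreated mouse 10 at 90 days (1088.7 CPM) lies above mouse 12 at 155 days (1030.3 CPM).

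The same comparison was made between the OKN-007 groups, which share no mouse with the untreated ones. Ctss was at 130.1, 118, 127 and 117 CPM in WT mice 5 to 8 and at 1300.1, 1187, 1199.7 and 1065 CPM in G93A mice 13 to 16. Ctsd was at 119.6, 113, 116 and 117 CPM in WT and at 1131, 1029, 889 and 882 CPM in G93A mice. Cst3 was at 604, 602, 671 and 597 CPM in WT and at 1354, 1424, 1301 and 1251 CPM in G93A mice. In each case the lowest G93A mouse was mouse 16, as it was for all 9 genes, and it lay far above the WT mice. In WT and G93A mice the ranges were 527 to 568 and 1612 to 2125 CPM for Ctsb, 72.8 to 76.5 and 286 to 364 CPM for Ctsl, 47.6 to 55.1 and 337 to 462 CPM for Ctsz, and 61.5 to 65.04 and 168 to 217 CPM for Ctsa. Ctsh and Ctsc, at 9.05 to 10.8 and 8.02 to 8.67 CPM in WT mice, were at 68.5 to 84.9 and 37.3 to 42.9 CPM in G93A mice. All 9 genes were again called higher with no overlap of the groups, against 23.3% of genes called higher, 41.5% called in either direction and 22.6% higher with no overlap. The log2 fold changes were 3.31 for Ctss, 3.11 for Ctsd, 3.04 for Ctsh, 3.01 for Ctsz, 2.31 for Ctsc, 2.18 for Ctsl, 1.84 for Ctsb, 1.65 for Ctsa and 1.14 for Cst3 (SE 0.13 to 0.18, largest adjusted p = 4.16e-06, edgeR). Without the 2 mice with liver RNA all 9 genes were called in both treatments, with log2 fold changes of 1.13 to 3.23 in untreated and 1.13 to 3.28 in OKN-007 mice. With the Hox level as a covariate all 9 were called as well, at 1.03 to 2.998 and 1.16 to 3.24. The Hox level itself differed with genotype at this age, so that cord level and genotype cannot be told apart.

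**Figure D2:**
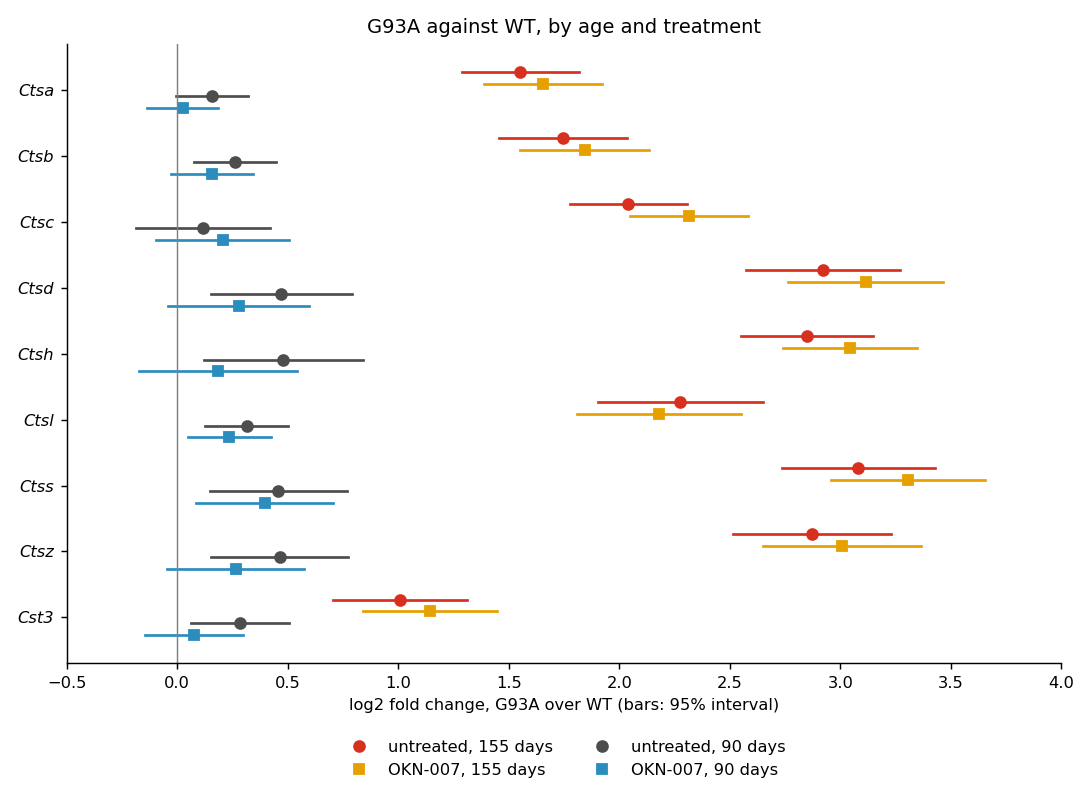
Log2 fold change of G93A over WT mice for each of the 9 genes at 90 and 155 days in untreated and OKN-007 mice, with 95% intervals from the edgeR fit. At 155 days the estimates run from 1.01 (Cst3, untreated) to 3.31 (Ctss, OKN-007), and at 90 days none exceeds 0.48.

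In bulk tissue fewer cells of a type and less RNA per cell cannot be told apart, and the same holds for more of either. All 10 microglia markers were higher in the G93A untreated mice at 155 days, their summed level going from 340 to 412 CPM in WT mice to 1483 to 2614 CPM in G93A mice, and none of the defining markers was at 0. The 8 markers of reactive microglia were all higher, from 265 to 306 CPM to 1243 to 2285 CPM. Of 8 astrocyte markers 7 were higher, from 4662 to 5178 CPM to 13760 to 17289 CPM, and Gfap carried most of that rise, with 2191 CPM in WT and 11460.2 CPM in G93A mice, the median log2 fold change of the 8 astrocyte markers being 0.69. In the same mice 6 of 6 neuron markers and 5 of 6 motor neuron markers were lower. Markers of border macrophages did not pass the test (0 of 3 tested) and summed to 3.39 to 3.97 CPM in WT and 3.64 to 6.40 CPM in G93A mice, and of the 5 neutrophil markers 1 was tested and Elane was at 0 in every G93A mouse. Of the T and NK cell markers 2 of 3 tested were higher, Cd3g (log2 fold change 2.36) and Cd8a (2.61), and the 5 markers summed to 1.83 to 3.02 CPM in WT and 3.54 to 4.59 CPM in G93A mice. With OKN-007 2 of 3 T and NK cell markers were higher as well. Of the border macrophage markers 1 of 3 tested was called higher with OKN-007, the 3 log2 fold changes running from 0.10 to 0.77. Per 100 CPM of microglia markers, Ctss was at 37.6 CPM in the WT untreated mice and at 58.3 CPM in the G93A untreated mice. This ratio was formed for Ctss alone, the gene with the largest rise. The median log2 fold change of the 10 microglia markers was 2.18. Those of Ctsc (2.04), Ctsb (1.75), Ctsa (1.55) and Cst3 (1.01) lay below it. Those of Ctsl (2.28), Ctsh (2.85), Ctsz (2.87), Ctsd (2.92) and Ctss (3.08) lay above it. The 10 markers themselves ran from 0.39 to 3.86, so that all 9 genes lay within the range of the markers. The position of a gene against the marker median was not tested. The part of the microglia, astrocyte, border macrophage, T and NK cell markers in the change of the 9 genes was not tested.

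**Figure D3:**
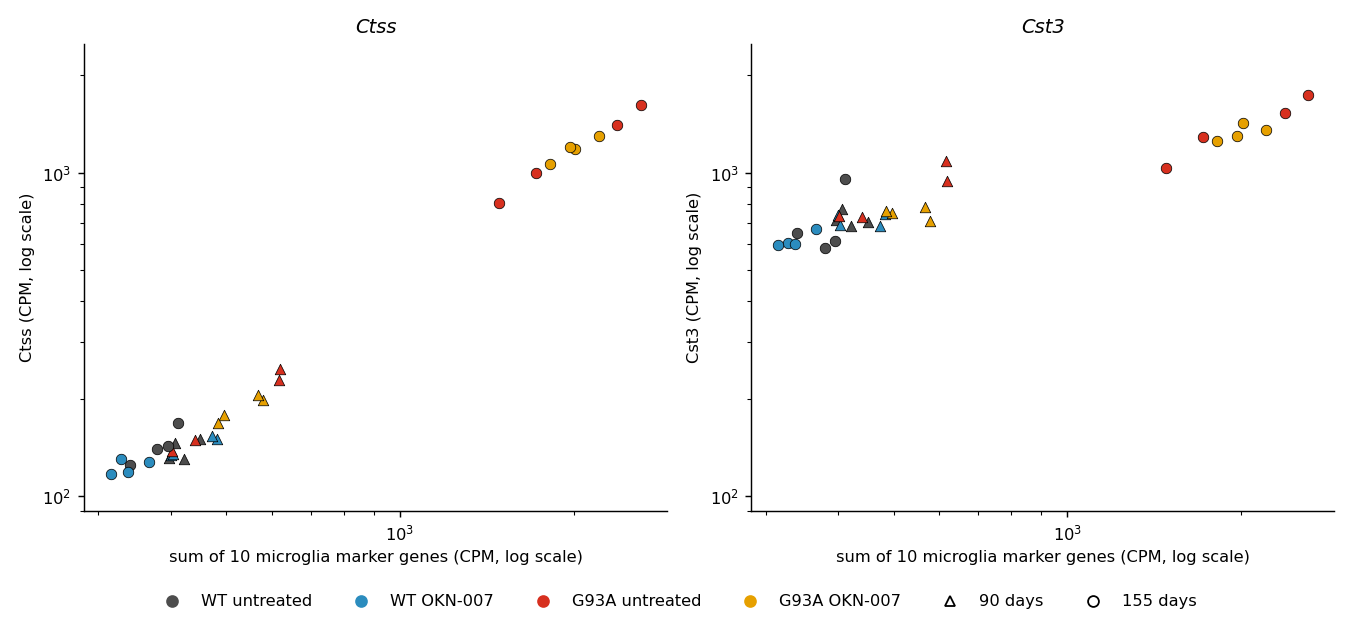
Ctss (left) and Cst3 (right) in CPM against the summed CPM of the 10 microglia markers in each of 32 mice, all axes on a log scale, coloured by group, with triangles for 90 days and circles for 155 days. The G93A mice at 155 days lie apart from the other mice, at 1483 CPM of microglia markers or more.

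At 90 days the differences were small. In untreated mice the log2 fold changes were 0.48 for Ctsh, 0.47 for Ctsd, 0.46 for Ctsz and Ctss, 0.31 for Ctsl, 0.28 for Cst3, 0.26 for Ctsb, 0.16 for Ctsa and 0.12 for Ctsc. No gene of the 9 passed the test (smallest adjusted p = 0.794, edgeR), as 0% of 18899 genes did, while 7 of the 9 had an unadjusted p under 0.05, against 5.96% of all genes. None of the 9 had groups without overlap, against 1.21% of genes that were higher in G93A mice with no overlap. With the level of liver markers as a covariate the log2 fold changes were 0.09 to 0.42, and with the Hox level 0.10 to 0.46, with 0 called in both.

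The G93A untreated mice at 90 days were uneven. Ctss was at 131, 146, 149.8 and 130.04 CPM in WT mice 1 to 4 and at 149, 228, 247 and 138 CPM in G93A mice 9 to 12. Ctsd was at 132, 147, 134 and 124 CPM in WT and at 139, 250.4, 215 and 137 CPM in G93A mice. For both genes mice 10 and 11 were above every WT mouse, and mice 9 and 12 lay near the WT range. Cst3 was at 713, 774, 705 and 682 CPM in WT and at 727, 1089, 943 and 733 CPM in G93A mice, with the same pair of mice high. Ctsz was at 61.6, 61.01, 67.2 and 59.8 CPM in WT and at 70.5, 109, 102 and 62.3 CPM in G93A mice, and Ctsh at 13.1, 11.7, 13.7 and 12.8 against 14.2, 23.8, 20.9 and 12.8 CPM. Ctsc differed in that mouse 11 alone was high, at 14.1 CPM, with 9.88 to 10.96 CPM in the other G93A mice and 9.85 to 11.003 CPM in WT. The summed microglia markers were high in mice 10 and 11 too, at 441, 616, 618 and 402 CPM in mice 9 to 12 against 398 to 451 CPM in WT, and 0 of the 10 markers passed the test.

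With OKN-007 at 90 days the log2 fold changes ran from 0.03 to 0.40 and again no gene of the 9 was called, as 0% of all genes were. Ctsl was at 68.3 to 79.4 CPM in WT mice and 83.7 to 88.9 CPM in G93A mice, and Ctsb at 507 to 576 against 586 to 631 CPM. Ctss was at 150.3, 134, 134 and 153 CPM in WT mice 5 to 8 and at 178, 168, 198 and 205 CPM in G93A mice 13 to 16. These 3 genes and Ctsd had groups that did not overlap, 4 of 9 against 1.56% of all genes, and Ctsl and Ctss had an unadjusted p under 0.05, against 3.95% of all genes. Over the mean of both treatments, which uses the same mice again, the log2 fold changes were 0.09 to 0.43 with 0 of 9 called (smallest adjusted p = 0.175, for Ctsl, edgeR) against 0.0265% of genes, and 7 of 9 had an unadjusted p under 0.05 against 6.61% of genes. All 9 estimates were above 0 in each of these comparisons, where the median over all genes was 0.0004 untreated, 0.006 with OKN-007 and 0.003 for the mean. The 9 genes varied together among the G93A mice of this age (median Pearson r of the gene pairs 0.91). Their signs are therefore not independent observations. In the mean of both treatments DESeq2 called Ctsl and Ctss, with 66 of all genes called. Without G93A untreated mouse 12, which lay near the WT range, edgeR called Ctsl, Ctss and Ctsz, with 54 of all genes. Without a filter on low counts it called Ctsd, Ctss and Ctsz, with 110 of all genes. Of 28 alternatives for this comparison 25 called 0 of the 9 genes.

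OKN-007 was compared with no treatment within each genotype and age, which asks whether the drug shifted the cathepsins. These comparisons share their groups with those above. In G93A mice at 155 days the mean Ctss level was 1206 ± 372 CPM untreated and 1188 ± 96.1 CPM with OKN-007 (SD, n = 4 each), that of Ctsd was 983 ± 287 and 983 ± 120 CPM, that of Ctsb 1867 ± 502 and 1905 ± 216 CPM, and that of Cst3 1396 ± 304 and 1332 ± 74.5 CPM. Over the 9 genes the log2 fold changes ran from -0.07 to 0.14, the 95% intervals reached from -0.42 to 0.39 at their extremes, 0 were called by edgeR and 0 had an unadjusted p under 0.05. Of all genes 0% were called and 4.04% had an unadjusted p under 0.05. Without the 2 mice with liver RNA the log2 fold changes ran from -0.27 to 0.04 (median -0.12), and with the Hox level as a covariate from -0.09 to 0.20, with 0 called in both. A p that misses the threshold does not show that the treated and untreated mice were alike, and the intervals give what these 4 mice per group can bound.

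In G93A mice at 90 days the log2 fold changes under OKN-007 ran from -0.26 for Ctsd to 0.15 for Ctsc, with intervals from -0.57 to 0.45. Cst3 came closest to the threshold, with a log2 fold change of -0.22 and an unadjusted p = 0.0514 (edgeR), and its levels were 873 ± 175 CPM untreated and 749.96 ± 32.2 CPM with OKN-007. Neither at 155 days (-0.24 to 0.02, intervals -0.56 to 0.39) nor at 90 days (-0.06 to 0.13, intervals -0.38 to 0.49) was any of the 9 genes called in WT mice. All genes called made up 0% in each of these comparisons, and an unadjusted p under 0.05 was held by 5.56% of genes in G93A mice at 90 days, 2.94% in WT mice at 155 days and 4.07% in WT mice at 90 days. The difference between the drug response of G93A and of WT mice was -0.09 to 0.27 at 155 days (intervals -0.60 to 0.68) and -0.30 to 0.09 at 90 days (intervals -0.80 to 0.52). It was called for 0 of the 9 genes, with 0% of all genes called and 2.34% and 2.81% at an unadjusted p under 0.05. Without the 2 mice with liver RNA the difference at 155 days was -0.31 to 0.16 and the drug response of WT mice -0.22 to 0.04, and with the Hox level as a covariate they were -0.10 to 0.30 and -0.22 to 0.01, with 0 called. DESeq2 and limma-voom also called 0 of the 9 genes in all 6 of these comparisons.

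**Figure D4:**
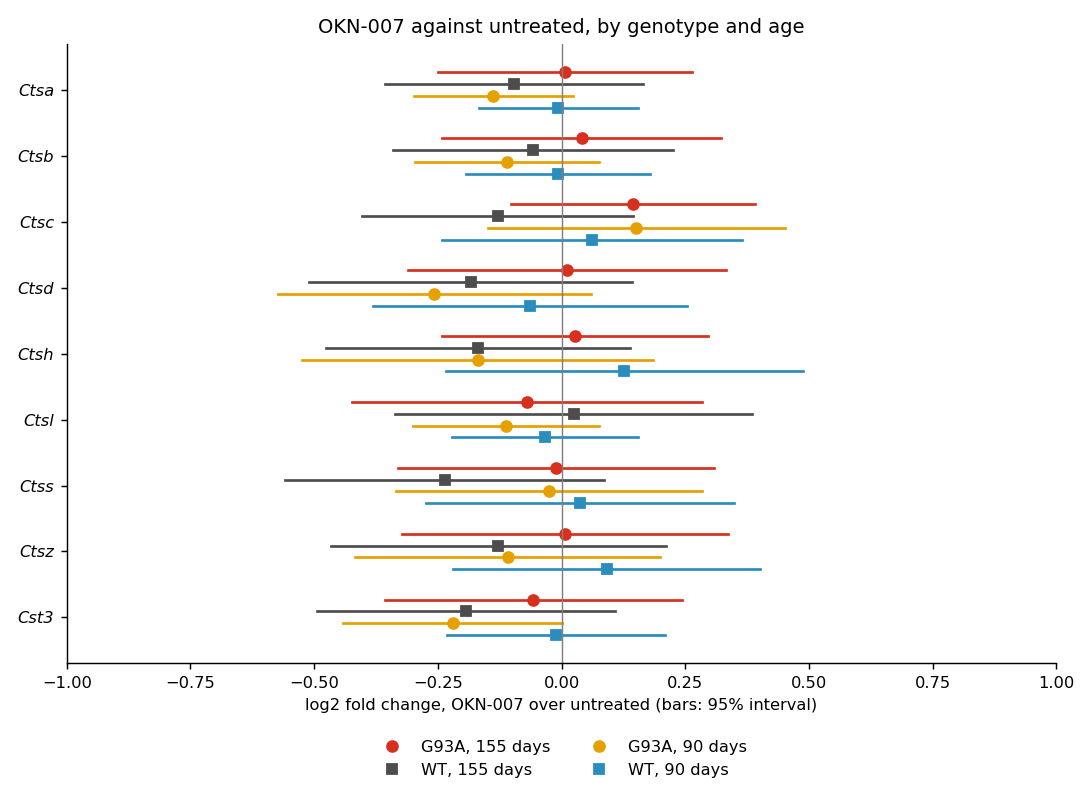
Log2 fold change of OKN-007 over untreated mice for each of the 9 genes, in WT and G93A mice at both ages, with 95% intervals from the edgeR fit. The estimates lie between -0.26 and 0.15, and every interval includes 0.

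The change with genotype was compared between the ages in a fit of all 32 mice. In untreated mice the log2 fold change of G93A over WT was larger at 155 days than at 90 days by 2.62 for Ctss, 2.44 for Ctsd, 2.397 for Ctsz, 2.36 for Ctsh, 1.95 for Ctsl, 1.91 for Ctsc, 1.48 for Ctsb, 1.38 for Ctsa and 0.71 for Cst3. All 9 were called higher (largest adjusted p = 0.00654, for Cst3, edgeR), against 12.9% of 19829 genes called higher and 21.2% in either direction. In OKN-007 mice the differences ran from 1.04 for Cst3 to 2.88 for Ctss, and all 9 were called, against 13% higher and 23.0% in either direction. Without the 2 mice with liver RNA all 9 were called in both treatments, at 0.83 to 2.76 in untreated and 1.05 to 2.88 in OKN-007 mice, and with the Hox level as a covariate at 0.74 to 2.61 and 1.05 to 2.87.

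Within untreated G93A mice the levels at 155 days were above those at 90 days by log2 fold changes of 2.66 for Ctss, 2.41 for Ctsd, 2.19 for Ctsz and 2.11 for Ctsh, down to 0.68 for Cst3 (adjusted p = 1.77e-04, edgeR). All 9 were called higher, against 21% of genes, and 8 of 9 had ages that did not overlap, against 17.2% of genes. Cst3 was the exception, with 1088.7 CPM in mouse 10 at 90 days and 1030.3 CPM in mouse 12 at 155 days. In untreated WT mice 0 of the 9 genes were called between the ages, with log2 fold changes of -0.25 (Ctsh) to 0.05 (Ctss) and intervals of -0.59 to 0.37, while 24.9% of all genes were called. Ctsc alone had ages that did not overlap, at 8.34 to 9.52 CPM at 155 days and 9.85 to 11.003 CPM at 90 days. The share of all genes that were lower with no overlap was not counted. The summed oligodendrocyte markers of the WT mice went from 36490 CPM at 90 days to 22380 CPM at 155 days, with 6 of 6 markers lower, and age and anything that differed between the ages in tissue or processing cannot be told apart. Without the 2 mice with liver RNA the age difference was 0.78 to 2.79 in G93A mice (9 called) and -0.27 to 0.03 in WT mice (0 called), and with the Hox level as a covariate 0.70 to 2.66 (9 called) and -0.27 to 0.05 (0 called).

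Levels were compared between genes per length, as CPM per kilobase of exon (RPKM). In WT untreated mice at 155 days the order was Cst3 at 554 ± 135 RPKM, Ctss at 106 ± 13.3, Ctsb at 92.9 ± 6.92, Ctsd at 55.8 ± 7.53, Ctsz at 37.6 ± 5.86, Ctsa at 14.2 ± 1.22, Ctsl at 11.2 ± 0.72, Ctsh at 2.398 ± 0.25 and Ctsc at 1.56 ± 0.09 RPKM (SD, n = 4). The ranges of Ctss and Ctsb overlapped, and their order turned when the longest transcript was used as the length. In G93A untreated mice at 155 days the order was Cst3 at 1103 ± 240, Ctss at 888 ± 274, Ctsd at 418 ± 122, Ctsb at 309 ± 82.9, Ctsz at 273 ± 77.5, Ctsl at 53.8 ± 20.4, Ctsa at 41.1 ± 9.43, Ctsh at 17.1 ± 4.14 and Ctsc at 6.38 ± 1.51 RPKM. In these G93A mice the ranges of 4 neighbouring pairs overlapped, Cst3 with Ctss, Ctsd with Ctsb, Ctsb with Ctsz, and Ctsl with Ctsa. Both genes of a pair were measured in the same mice. In WT and G93A mice alike, overlapping ranges therefore do not show that the order differed from mouse to mouse. The order was not tested.

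The ratio of Ctss to Cst3, an elastolytic protease and its inhibitor, was formed from their CPM in each mouse. At 155 days this ratio restates the fold changes of the genes with the largest and the smallest rise of the 9, and is no separate result. It was 0.176 to 0.239 (mean 0.210) in WT untreated mice at 155 days and 0.770 to 0.932 (mean 0.852) in G93A untreated mice. With OKN-007 the mean was 0.199 in WT and 0.892 in G93A mice at 155 days. At 90 days the mean ratio lay between 0.194 and 0.250 in the 4 groups. The ratio of Ctsd to Cst3 went from 0.164 to 0.210 in WT untreated mice to 0.614 to 0.756 in G93A untreated mice at 155 days. Ctsd is an aspartic protease and not of the papain type that cystatin C blocks, so that this ratio sets the levels of 2 genes side by side and is no balance of enzyme and inhibitor. The ratio rests on mRNA and not on protein or activity. The summed level of the 9 genes was 1752 CPM in WT and 6503 CPM in G93A untreated mice at 155 days.

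Within groups most of the 9 genes varied together in G93A mice, and less uniformly in WT mice. Over 32 mice, with each group's mean removed, the median Pearson r of the 36 gene pairs was 0.81, from 0.34 for Ctsc with Cst3 to 0.93 for Ctsa with Ctsb, and 35 pairs were above 0.5. Ctsd held the highest median r with the other genes (0.88) and Ctsc the lowest (0.57). The median r was 0.94 among the G93A mice at 155 days, 0.73 among WT mice at 155 days, 0.91 among G93A mice at 90 days and 0.27 among WT mice at 90 days, and 0.76 over all mice when the 2 mice with liver RNA were left out. Of the 36 pairs, 8 were below 0 among WT mice at 155 days, namely Ctsc with each of the other genes (r from -0.54 to -0.77), and 11 were below 0 among WT mice at 90 days, where 9 were above 0.5. Each of these sets holds 4 untreated and 4 OKN-007 mice. At 155 days WT untreated mouse 2 was the lowest of its group for Ctsc (8.34 CPM) and the highest for each of the other genes. The pairs of Ctsc were not recomputed without that mouse. No pair was below 0 in the G93A mice at either age. The mice share library depth and tissue composition across genes, so these correlations are a description.

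**Figure D5:**
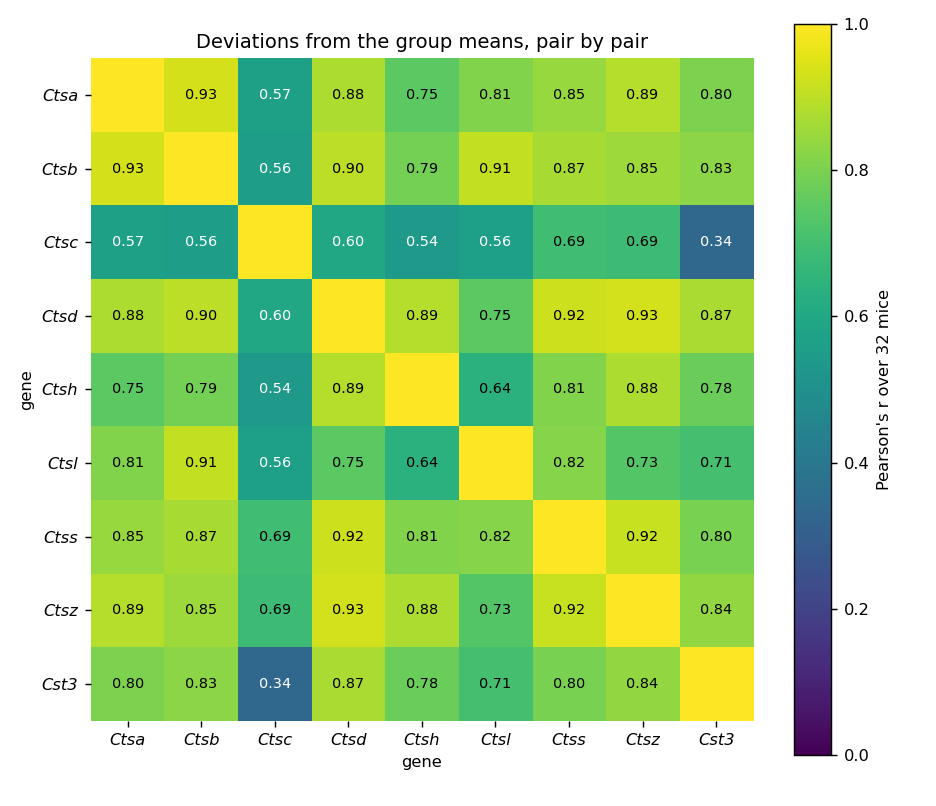
Heat map of Pearson's r between each pair of the 9 genes over 32 mice, from log2 CPM after removal of each group's mean, with r from 0 to 1 as colour and printed in each square. The pairs run from 0.34 (Ctsc with Cst3) to 0.93 (Ctsa with Ctsb), and the row of Ctsc holds the lowest values.

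Genes most like the 9 were ranked by Pearson r of log2 CPM over the 32 mice, which include the differences between groups. Ctsz was closest to C1qa (r = 0.997), a complement component. Ctsh was closest to Ctsz (0.995), Ctsd to Ctss (0.996), Ctsb to Ctsl (0.995) and Ctsa to Hexa (0.993), which encodes a lysosomal enzyme subunit. Ctsl was followed by Grn (0.993), the progranulin gene, and Clu (0.993), the clusterin gene. Ctsc was closest to Cd84 (0.990), a leukocyte receptor, and Cst3 to the lysosomal fucosidase Fuca1 (0.979).

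A further list of 45 genes of the pathway in the table was counted, of which 33 were tested at 155 days. In untreated mice 22 were called higher in G93A mice, 3 lower and 8 were not called (median log2 fold change 0.47), and with OKN-007 the counts were 22, 2 and 9 (median 0.49). Over all genes 21.3% were called higher and 39.5% in either direction in untreated mice, and 23.3% and 41.5% with OKN-007. The groups of the list hold 4 to 9 tested genes each, and their counts in untreated mice are to be read against these shares. No gene of the list was called at 90 days in either treatment or under OKN-007. Among the inhibitors 3 of 8 tested were higher and 2 lower: Cst7, cystatin F, which is targeted to endolysosomes and inhibits Ctsc, went from 0.157 to 36.1 CPM (log2 fold change 7.87, SE 0.33, adjusted p = 3.99e-12, edgeR), Serpina3n from 42.4 to 1229 CPM (4.87), and Cstb, the cytosolic cystatin B, from 9.92 to 15.2 CPM (0.64). Cst7 had 1 to 5 counts in WT mice and 712 to 1328 in G93A mice. Its WT level lay near the floor of 3 counts, so that the size of its fold is uncertain. Cst6 went from 1.34 to 0.695 CPM (-0.92) and Serpinb1a from 40.2 to 22.5 CPM (-0.82).

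Of the other lysosomal proteases 5 of 7 tested were higher and 1 lower. Ctse, an aspartic protease of immune cells, had 0 to 3 counts in WT mice and 45 to 118 in G93A mice, at least 23.2-fold higher with 3 counts per library as the floor. Ctsw had 1 to 5 against 9 to 21 counts (log2 fold change 2.53). Tpp1, a tripeptidyl peptidase, went from 61.4 to 114.5 CPM (0.91), and Ctsk, an osteoclast collagenase, from 7.93 to 5.61 CPM (-0.48). Of the genes of delivery and receptors 7 of 9 tested were higher and 0 lower, Grn with the largest change, from 51.4 to 388 CPM (2.93), followed by Nagpa (0.70) and Lrp1 (0.59). Of the binding partners 2 of 4 tested were higher, Cd74, the invariant chain that Ctss cleaves, from 2.71 to 26.7 CPM (3.32) and Glb1 (0.90), the beta-galactosidase that Ctsa protects. Neu1, the neuraminidase of that complex, was not called (-0.11). All 5 regulators tested were higher, Irf8 from 5.12 to 48.1 CPM (3.26), Spi1, which encodes PU.1, from 2.77 to 20.1 CPM (2.88) and Tfe3 (0.45) with smaller changes for the rest. The difference in G93A change between the ages in untreated mice was called higher for 18 of 37 genes of the list and lower for 0, against 12.9% of all genes called higher and 21.2% in either direction.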

How the data were processed

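Spinal cord RNA of 32 mice (8 groups of 4) was measured by poly(A) RNA sequencing with a stranded library kit. The authors deposited raw counts per gene, with no normalization. The paper names Trimmomatic, STAR, HTSeq, GRCm38 and GENCODE M10, whereas the submitters' processing notes list FastQC, STAR, featureCounts, edgeR and the builds GRCm39, mm39 and hg38, and 1321 of 42524 gene IDs were absent from GENCODE M21, so that the counter and build remain unsettled. Symbols and gene positions (GRCm38) came from GENCODE M21, in which 41203 IDs (96.9%) matched.

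Counts were tested with edgeR 4.0.16 in R 4.3.3 (TMM factors, filterByExpr, quasi-likelihood F test) with Benjamini-Hochberg adjustment over all genes tested. The 16 mice of each age were fitted together, and ages were compared in a fit of all 32 mice. Intervals of log2 fold changes use the t quantile at the total degrees of freedom of the edgeR test, residual and prior. The SE was derived from the log2 fold change and its F statistic. Levels are CPM of TMM-scaled libraries. Alternatives were DESeq2 1.42.0, limma-voom (limma 3.58.1), a surrogate variable (sva 3.50.0), other scalings and filters, covariates, and leaving out mice. The code was checked on simulated counts. The labels name no litter or batch, and the floor of 3 counts covers counting error only.

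The members and the gene lists were chosen with earlier results of these data known. All 9 members are named in every comparison. Genes of the pathway list are named where called in untreated mice at 155 days and among the 3 largest rises or falls of their sublist, and Neu1 was added after its value was seen. Csta2, Csta3 and Stfa3 were not matched in the table. The gene most like Ctss across mice is not reported here.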

Additional observations from a re-analysis of the deposited data

Results flagged for a closer look

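In 3 of 72 groups of 4 mice, 1 mouse stood far from the others, where chance gives about 1 in 20 groups, or 3.6. These were Ctsa in G93A OKN-007 mouse 15 at 90 days with 83.4 CPM (next mouse 75.9 CPM), Ctsb in WT untreated mouse 2 at 155 days with 625 CPM (next 543 CPM) and Cst3 in WT OKN-007 mouse 7 at 155 days with 671 CPM (next 604 CPM).

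The change with genotype differed between the ages for all 9 genes in both treatments, by the test of the difference itself (edgeR, 32 mice). In untreated mice the log2 difference, 155 days minus 90 days, was 1.38 for Ctsa, 1.48 for Ctsb, 1.91 for Ctsc, 2.44 for Ctsd, 2.36 for Ctsh, 1.95 for Ctsl, 2.62 for Ctss, 2.397 for Ctsz and 0.71 for Cst3. In OKN-007 mice it was 1.60 for Ctsa, 1.65 for Ctsb, 2.08 for Ctsc, 2.81 for Ctsd, 2.83 for Ctsh, 1.91 for Ctsl, 2.88 for Ctss, 2.71 for Ctsz and 1.04 for Cst3.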

How the results depend on the processing

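The number of the 9 genes called was recomputed 357 times over 15 comparisons, and 354 of these counts stayed within 1.5 times the reported one. The other 3 all belong to the mean of both treatments at 90 days, where edgeR called 0: DESeq2 called 2, edgeR without a filter on low counts called 3 (Ctsd, Ctss and Ctsz), and leaving out each mouse in turn gave 0 to 3, the 3 without G93A untreated mouse 12. The cause was not tested. No gene called in the reported fit changed direction under an alternative. Estimates that were not called changed sign in places, as for Ctss under OKN-007 in G93A mice at 155 days, from -0.18 to 0.16. Asking for a log2 fold change of at least 1 lost Cst3 in the untreated comparisons between ages (0.71 and 0.68). Counts over all genes moved by more than 1.5 times in 47 cases. With that fold they were 1717 of 7378 and 1888 of 7747 (G93A against WT at 155 days, untreated and OKN-007), 1416 of 4211 and 1434 of 4557 (G93A change between ages), 495 of 4933 and 1602 of 6687 (age in WT and in G93A), and 2 of 5 (mean of both treatments at 90 days). The Hox covariate left 4321 of the 7378, and without WT untreated mouse 4 at 90 days 3115 of the 4933 remained. At 90 days the untreated count of 0 became 16 with DESeq2, 39 without a filter, 1 with all 32 mice in the fit and 4 without G93A mouse 12. The OKN-007 count of 0 became 3 with DESeq2, 24 without a filter and 3 with the compared groups only. The mean of both treatments gave 66 with DESeq2, 110 without a filter, 15 at an adjusted p under 0.10, 21 with all mice, 26 with a surrogate variable, 2 or 3 with voom, upper-quartile factors, 10 counts in every mouse or a liver covariate, and 3 to 54 with each mouse left out. The drug comparisons and interactions had 0 calls and at most 17 without a filter, 3 otherwise. With the replicate block by mouse number the 9 genes were called as before (9, 9, 0 and 9 in the comparisons between ages), with 4197, 4624, 4824 and 6473 genes in all. The mouse numbers did not pair the mice, as 2 of 16 same-number pairs correlated above 0.1 and 2 correlated best with their own number. Depth limits none of the 9 genes, and 4 mice per group set the width of the intervals.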

Other observations

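The spread of the 9 genes between mice was smaller for most genes under OKN-007 at 155 days and in G93A mice at 90 days, a pattern seen in the data and not tested. In G93A mice at 155 days the SD of log2 CPM was lower with OKN-007 for 9 of 9 genes, from 0.33 to 0.53 untreated and 0.080 to 0.20 treated, while 67.5% of 19829 genes also had a lower SD with OKN-007. Without the 2 mice with liver RNA, an alternative chosen after seeing the data, it was 9 of 9 and 63.1% of genes. In WT mice at 155 days it was 9 of 9 with 65.2% of genes, in G93A mice at 90 days 8 of 9 with 68.1%, and in WT mice at 90 days 6 of 9 with 48.2%, and there the highest SD of the 9 genes was 0.11 untreated and 0.26 with OKN-007. The 9 genes varied together among the G93A mice at 155 days (median r 0.94), so that they are not independent observations of the spread.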
